A study of Mus musculus with 93 samples.

Results

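The mRNA of 9 enzymes of the mevalonate pathway up to squalene was followed in the liver of 7 inbred mouse strains on 2 diets. The members were Acat2, Hmgcs1, Mvk, Pmvk, Mvd, Idi1, Fdps, Fdft1 and Ggps1, taken as the rows of the count table whose Ensembl identifier carried that symbol. All 9 were found among the 53465 genes of the table, and all 9 were among the 19110 genes that had enough reads to be tested. The 93 mice were male and came from the domesticated strains C57BL/6J, DBA/2J, A/J and 129S1/SvImJ and the wild-derived strains WSB/EiJ, CAST/EiJ and PWK/PhJ. Every mouse lived at thermoneutrality, 30°C, from 6 wk of age. At 7 wk each was given a Western diet (WD, 40% of energy from fat) or a matched control diet (CD, 10% of energy from fat) for 17 wk. Carbohydrate gave 43% of energy on WD and 73% on CD, and protein 17% on both. Group sizes (CD, WD) were 8, 8 (C57BL/6J), 6, 7 (DBA/2J), 5, 6 (A/J), 7, 6 (129S1/SvImJ), 6, 6 (WSB/EiJ), 7, 8 (CAST/EiJ) and 6, 7 (PWK/PhJ). Livers were taken at 24 wk of age, and the warm housing was common to all 14 groups.

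The mevalonate pathway builds cholesterol and other isoprenoids from acetyl-CoA, and the liver is one of its main sites. Acetyl-CoA units are condensed to HMG-CoA, which is reduced to mevalonate, phosphorylated, and decarboxylated to an isoprenoid unit that is then joined into farnesyl diphosphate. Farnesyl diphosphate is a branch point, leading to squalene and the sterols on one side and to geranylgeranyl groups, dolichol and ubiquinone on the other. Many of the genes are known targets of the transcription factor SREBP2, which is held inactive in the endoplasmic reticulum when sterols are plentiful.

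Promoter sequence was found for 7 of the 9 members in a RefSeq table on build GRCm38.p6, as the 250 bases before each RefSeq start site, which need not be that of the GENCODE gene. Of these 7, 1 held the sterol regulatory element letters TCACNCCAC, 6 held the NF-Y box CCAAT and 5 held the Sp1 box GGGCGG, each searched on both strands. Over all 32851 promoters of that table the shares were 1.053%, 33.85% and 32.742%. Of 10 enzymes after squalene with promoter sequence, 0 held the sterol element letters. Only these exact letters were searched for, so lack of a match does not show lack of a sterol element. The promoters of 4 members are printed, read 5′ to 3′ on the strand of the gene, with every match to one of the 3 motifs in capitals (CCAAT and GGGCGG also appear as their reverse complements ATTGG and CCGCCC). Hmgcs1 is the one with the sterol element letters, at -137 to -129 from the start site. Idi1 had the largest diet differences. Acat2 was called lower in the fewest strains of the members that responded, and held no CCAAT. Ggps1 passed the test of diet in no strain.
Hmgcs1 (chr13:119690101-119690350, plus strand): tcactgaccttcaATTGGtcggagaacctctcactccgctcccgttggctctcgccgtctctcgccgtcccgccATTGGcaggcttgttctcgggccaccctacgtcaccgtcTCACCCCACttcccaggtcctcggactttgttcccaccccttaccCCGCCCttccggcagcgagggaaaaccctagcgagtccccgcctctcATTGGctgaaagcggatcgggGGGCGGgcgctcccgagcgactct
Idi1 (chr13:8885356-8885605, plus strand): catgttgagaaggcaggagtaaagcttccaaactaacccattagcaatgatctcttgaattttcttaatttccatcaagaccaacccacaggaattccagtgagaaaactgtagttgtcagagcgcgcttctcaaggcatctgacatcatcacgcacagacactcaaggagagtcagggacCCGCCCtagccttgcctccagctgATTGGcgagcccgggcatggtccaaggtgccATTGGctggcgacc
Acat2 (chr17:12960726-12960975, minus strand): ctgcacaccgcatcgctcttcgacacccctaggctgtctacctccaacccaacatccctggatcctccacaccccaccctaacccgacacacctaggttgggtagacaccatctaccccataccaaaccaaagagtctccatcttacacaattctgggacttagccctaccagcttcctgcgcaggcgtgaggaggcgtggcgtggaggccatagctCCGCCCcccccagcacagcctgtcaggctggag
Ggps1 (chr13:14063489-14063738, minus strand): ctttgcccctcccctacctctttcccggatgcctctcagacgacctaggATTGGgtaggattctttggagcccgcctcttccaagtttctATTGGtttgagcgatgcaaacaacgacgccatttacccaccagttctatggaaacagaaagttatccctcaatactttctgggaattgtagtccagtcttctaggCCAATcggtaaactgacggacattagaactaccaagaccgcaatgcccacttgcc
The matches of the 4 promoters did not overlap one another. A match is a stretch of letters and no measured binding, and CCAAT was held by Ggps1 with 3 matches as well as by Idi1 with 2 and Hmgcs1 with 3.

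Between 40020424 and 49894856 reads per mouse lay on genes (median 46618609). Alb, Ttr, Apoa1, Apob and the other hepatocyte markers found (7 of 8) had reads in every mouse. The share of unmapped reads ran from 1.66% to 14.8% over mice and was highest in CAST/EiJ, with a mean of 10.8% on CD and 13.3% on WD against 2.23% and 2.82% in C57BL/6J, whose genome the reads were mapped to. Some members share sequence with other genes. A stretch of 774 exon bases of Fdft1 also lies in Ctsb on the opposite strand, 257 of Ggps1 lie in Arid4b on the opposite strand, and 1124 of Fdps lie in Gm43738 on the same strand. Acat2 has a close copy, Acat3, with 97.7% identity over 1477 bases, so their reads may be split in a way the counts do not show. Acat2 also matches Tcp1 over 445 bases with 98.7% identity, and Tcp1 had a median of 6043 reads against 2022 for Acat2.

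On CD the members differed widely in level. Per kb of exon, averaged over the 7 strain means, Hmgcs1 had 29.1 CPM (read counts scaled to a library size of 1e+06) per kb, Fdft1 25.2, Acat2 24.5, Pmvk 17.7, Mvd 9.15, Idi1 7.64, Mvk 4.58, Ggps1 2.10 and Fdps 1.62. The enzymes at both ends of the route to squalene stood highest per length. Fdps, whose product feeds every later branch, had the lowest value. That value was divided by all 4208 exon bases of Fdps, of which 1124 are shared with Gm43738 on the same strand. Gm43738 had a median of 0 reads, and 3.69% to 5.67% of reads per mouse were set aside as ambiguous. Whether reads on the shared bases were among these was not tested, so the last rank of Fdps cannot be read as its mRNA level. CPM in the rest of the text is per gene and serves to compare mice, with no correction for length.

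Members were lower on WD in every strain, from 2 of 9 in DBA/2J to 8 of 9 in 3 strains. By limma-voom with Benjamini-Hochberg adjustment over all genes, 8 of 9 members were lower on WD in C57BL/6J (11.9% of all genes tested were called lower there), 8 in 129S1/SvImJ (13.6%) and 8 in PWK/PhJ (14.5%). In WSB/EiJ 7 were lower (3.97% of genes), with 6 in CAST/EiJ (9.73%), 5 in A/J (4.64%) and 2 in DBA/2J (7.77%). No member was called higher on WD in any strain, at an unadjusted p under 0.05 or with edgeR or DESeq2 either, where 10.5% of all gene and strain combinations were called higher. In total 44 of 63 member and strain combinations were called lower, against 9.44% of all gene and strain combinations. The median log2 difference of the 9 members was -1.54 in C57BL/6J, -1.49 in PWK/PhJ, -1.14 in CAST/EiJ, -1.08 in WSB/EiJ, -0.83 in A/J, -0.76 in 129S1/SvImJ and -0.40 in DBA/2J, while the median over all genes lay between -0.01 and 0.02. Idi1 and Pmvk were lower in all 7 strains, which held for 0.324% of all genes. Hmgcs1, Mvd and Fdps were lower in 6 strains, Mvk in 5, Fdft1 in 4, Acat2 in 3 and Ggps1 in none.

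**Figure D1:**
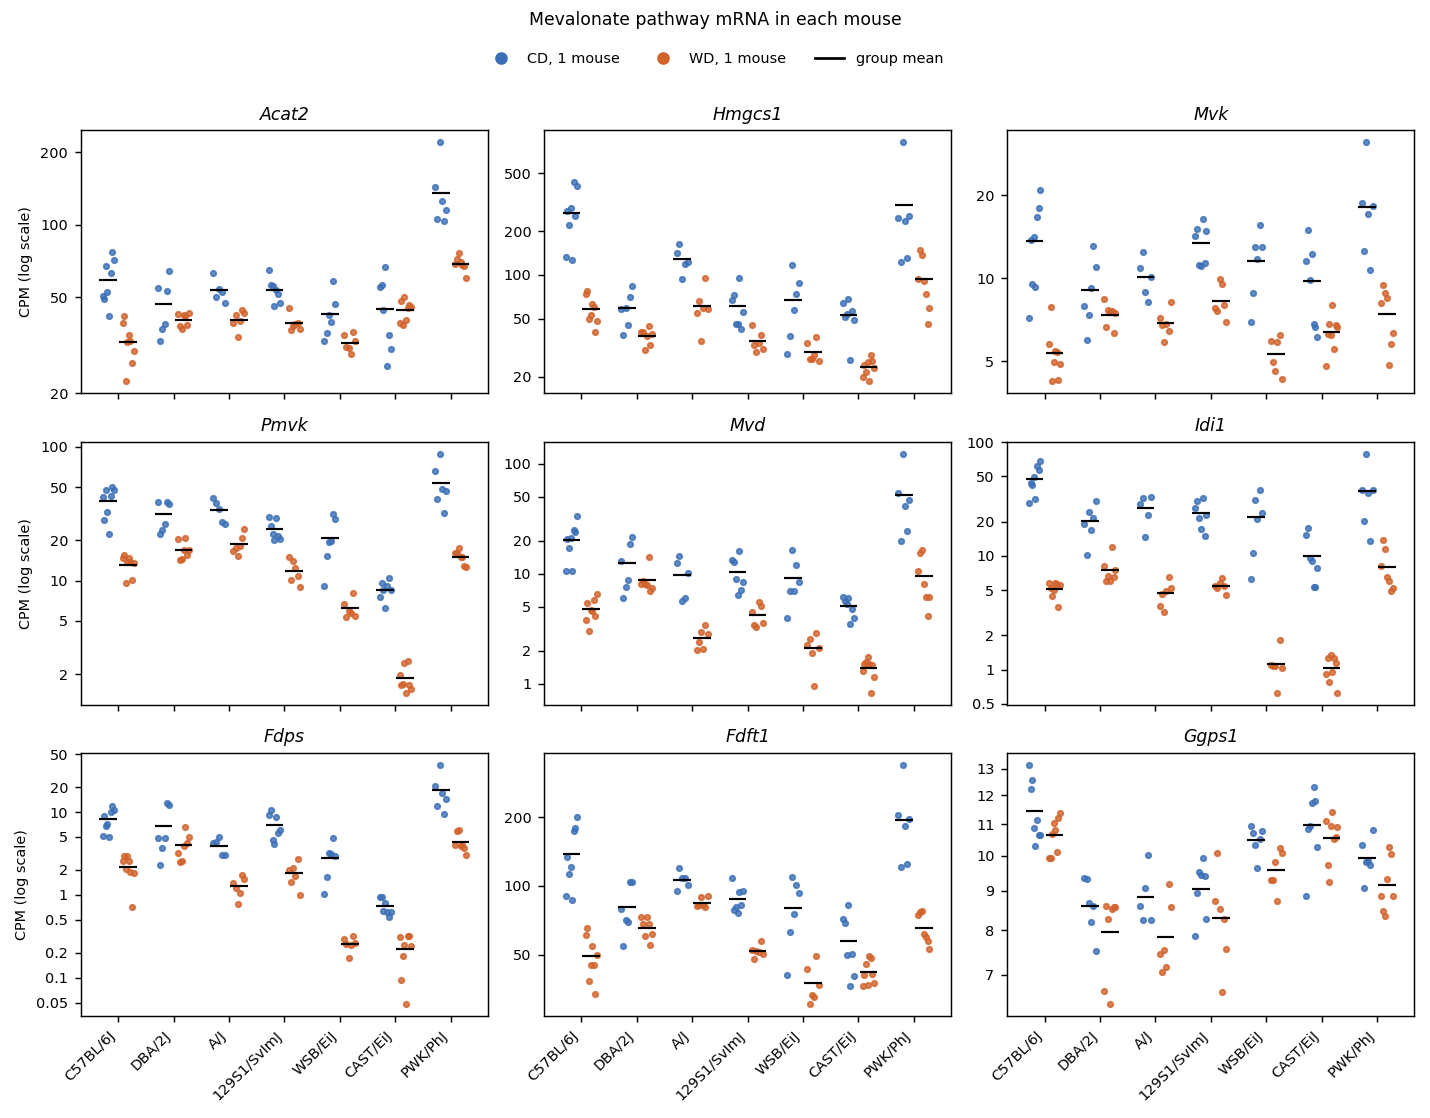
CPM of each member in each of the 93 mice on a log axis, with CD and WD side by side in each strain and a bar at the group mean. Idi1 and Pmvk sit lower on WD in every strain, Ggps1 barely moves, and on CD PWK/PhJ is the highest strain for 7 of the 9 members.

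**Figure D2:**
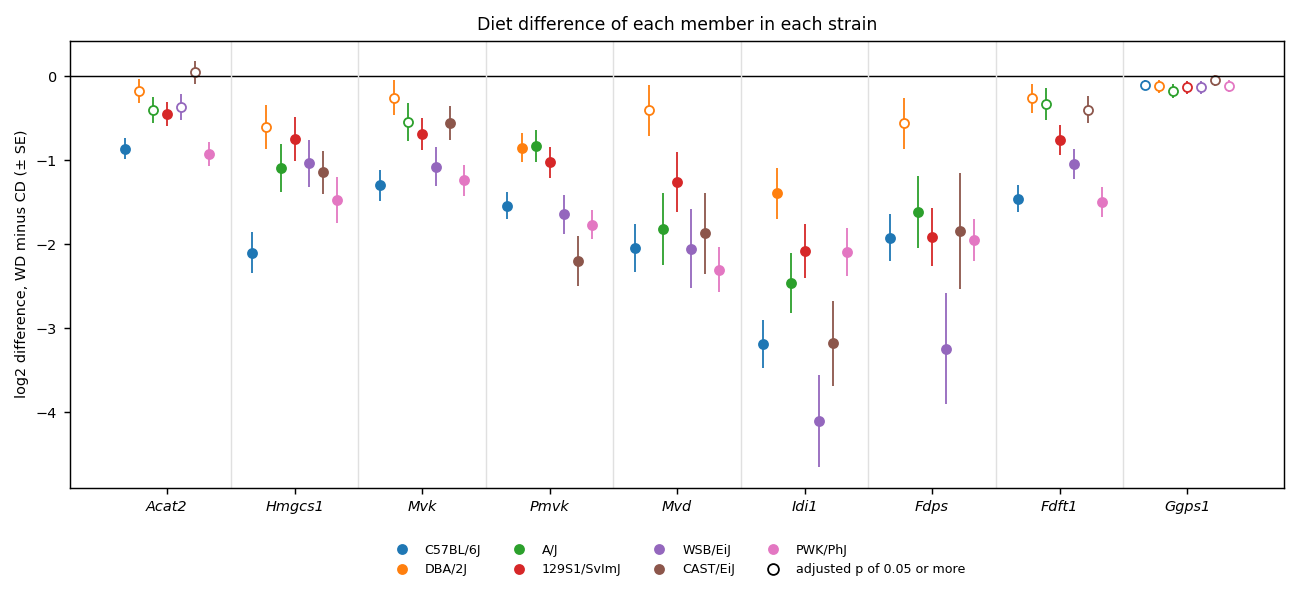
Log2 difference, WD minus CD, with its standard error for each member and strain. Filled points passed the test and open points did not: Idi1 in WSB/EiJ is the lowest at -4.10, and the DBA/2J points are open for 7 of the 9 members.

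Acat2 and Hmgcs1 act before mevalonate. Gene positions here and in the next paragraphs are from GENCODE on GRCm38. Overlap between the mice of the 2 diets is given as a description, and its share over all genes was not taken. Acat2 (ENSMUSG00000023832, chr17:12942890-12960747, minus strand), the cytosolic thiolase that joins acetyl-CoA units, had the smallest median difference over strains of the 8 members called in any strain. In PWK/PhJ its lowest, median and highest CPM were 103, 120.2 and 219.7 on CD and 60.2, 68.5 and 76.4 on WD. The 2 diets did not overlap, and WD was 1.90-fold lower (log2 difference -0.92 ± 0.14, adjusted p = 3.27e-07). In C57BL/6J the values were 42.0, 57.9 and 77.1 on CD and 22.4, 32.7 and 42.0 on WD, touching at the edge (-0.86 ± 0.13, adjusted p = 1.9e-07). CAST/EiJ showed no such shift, with 26.0, 44.1 and 66.6 CPM on CD and 38.4, 45.4 and 50.2 on WD. All 8 WD mice of that strain lay inside the range of its CD mice, and the log2 difference was 0.05 ± 0.13, adjusted p = 0.874, a value that turned slightly negative with edgeR and DESeq2. In A/J Acat2 did not overlap between diets and did not pass (-0.40 ± 0.16, adjusted p = 0.0908), though a fit of A/J alone called it lower (adjusted p = 0.00701).

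Hmgcs1 (ENSMUSG00000093930, chr13:119690379-119708260, plus strand) is the cytosolic HMG-CoA synthase. C57BL/6J mice had 127, 265 and 438 CPM as the lowest, median and highest on CD and 40.7, 56.5 and 76.9 on WD. The groups did not overlap, and the level was 4.29-fold lower on WD (-2.10 ± 0.24, adjusted p = 1.02e-10). The 5 A/J mice on CD had 93.2, 119, 122, 141 and 164 CPM, against 34.9, 58.5 and 95.01 on WD. One A/J mouse on WD reached the CD range, and the difference passed the test (-1.09 ± 0.29, adjusted p = 0.00790). PWK/PhJ had the widest spread on CD, 122, 239.8 and 815 CPM, against 46.1, 91.5 and 149 on WD (-1.48 ± 0.27, adjusted p = 1.07e-05). A single PWK/PhJ mouse set the top of that range, the next being at 254.8 CPM, and without it the count of members called lower in this strain was again 8. In DBA/2J the log2 difference was -0.60 ± 0.26, adjusted p = 0.104, and a fit of that strain alone called it lower (adjusted p = 0.00883). With no filter on low counts Hmgcs1 was no longer called in A/J (adjusted p = 0.0635), CAST/EiJ (0.0958), 129S1/SvImJ (0.238) or WSB/EiJ (0.279).

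Mvk, Pmvk and Mvd phosphorylate mevalonate step by step and decarboxylate it to isopentenyl diphosphate. Mvk (ENSMUSG00000041939, chr5:114444269-114460591, plus strand) had the smallest differences of the 3, from -1.30 ± 0.18 in C57BL/6J to -0.26 ± 0.21 in DBA/2J on the log2 scale. In C57BL/6J its lowest, median and highest CPM were 7.15, 13.9 and 20.9 on CD and 4.22, 5.18 and 7.84 on WD, with some overlap. In WSB/EiJ the diets did not overlap, at 6.94, 12.4 and 15.6 CPM on CD and 4.29, 5.41 and 6.21 on WD (-1.08 ± 0.23, adjusted p = 5.86e-04). The Mvk difference in A/J, -0.55 ± 0.22, adjusted p = 0.110, did not pass, but did with sample weights (adjusted p = 0.0363). In CAST/EiJ the call (-0.55 ± 0.20, adjusted p = 0.0439) was lost under 4 alternatives, with adjusted p from 0.0558 to 0.0867.

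For Pmvk (ENSMUSG00000027952, chr3:89454541-89469013, plus strand), the phosphomevalonate kinase, the diets were set apart in every strain, since no WD mouse reached the lowest CD mouse of its strain. CAST/EiJ had the largest fall, from 6.29, 8.53 and 10.4 CPM on CD to 1.45, 1.68 and 2.50 on WD, 4.59-fold lower (-2.20 ± 0.30, adjusted p = 3.08e-08). In DBA/2J the values were 22.4, 32.1 and 39.0 on CD and 14.4, 16.8 and 20.9 on WD, 1.80-fold lower (-0.85 ± 0.18, adjusted p = 1.90e-04). A/J gave 26.6, 27.3, 34.3, 38.4 and 41.5 CPM on CD and 15.2, 17.9 and 24.2 on WD, where the highest WD mouse stayed just under the lowest CD mouse (-0.83 ± 0.19, adjusted p = 0.00174).

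Mvd (ENSMUSG00000006517, chr8:122433601-122443422, minus strand), the diphosphomevalonate decarboxylase, was 4.93-fold lower on WD in PWK/PhJ, its largest change (-2.30 ± 0.27, adjusted p = 8e-11). The lowest, median and highest CPM there were 19.9, 43.9 and 123 on CD and 4.18, 8.103 and 16.4 on WD, and the groups did not overlap. DBA/2J behaved otherwise: 6.07, 10.99 and 21.5 CPM on CD and 6.996, 8.16 and 14.3 on WD, with wide overlap and a log2 difference of -0.40 ± 0.30, adjusted p = 0.408. One DBA/2J mouse on WD, at 14.3 CPM, stood apart from the other 6, which lay between 7.00 and 8.57. The remaining 5 strains lay between -2.05 ± 0.47 in WSB/EiJ and -1.26 ± 0.36 in 129S1/SvImJ on the log2 scale, and all passed.

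Idi1 (ENSMUSG00000058258, chr13:8885501-8892451, plus strand) showed the largest fall of the 9 in 6 of the 7 strains; in PWK/PhJ Mvd fell more. The enzyme isomerizes isopentenyl to dimethylallyl diphosphate, so that chain building can start. In WSB/EiJ its lowest, median and highest CPM were 6.21, 22.4 and 38.0 on CD and 0.626, 1.07 and 1.82 on WD, 17.2-fold lower (-4.10 ± 0.55, adjusted p = 2.69e-08). All 6 WD mice lay under the lowest CD mouse. C57BL/6J went from 29.0, 46.5 and 68.1 to 3.53, 5.37 and 5.75 CPM, 9.10-fold lower (-3.19 ± 0.28, adjusted p = 4.05e-15), and the 8 WD mice were tightly grouped. CAST/EiJ went from 5.29, 9.09 and 17.5 to 0.626, 1.04 and 1.34 CPM, 9.04-fold lower (-3.18 ± 0.50, adjusted p = 1.51e-06).

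The 5 A/J mice on CD had 14.7, 22.9, 28.4, 32.4 and 32.8 CPM of Idi1, all above the A/J mice on WD at 3.20, 4.74 and 6.52 (-2.46 ± 0.36, adjusted p = 6.78e-07). In 129S1/SvImJ the values were 15.0, 23.0 and 32.1 and 4.48, 5.404 and 6.33 CPM, again with no overlap (-2.08 ± 0.32, adjusted p = 4.64e-07). In PWK/PhJ, with 13.4, 37.0 and 79.2 CPM on CD and 4.91, 6.56 and 13.8 on WD (-2.10 ± 0.29, adjusted p = 9.76e-09), the groups met at the edge. DBA/2J had the smallest change, from 10.2, 20.3 and 30.5 to 5.97, 6.67 and 12.05 CPM, 2.62-fold lower (-1.39 ± 0.30, adjusted p = 3.71e-04). There too the groups overlapped, by 1 WD mouse. Near-identical pseudogenes of Idi1 exist, and the most counted of them, Gm35570, had a median of 109 reads against 348 for Idi1.

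Fdps (ENSMUSG00000059743, chr3:89093588-89101959, minus strand) makes farnesyl diphosphate, and it was called lower in each strain but DBA/2J. In WSB/EiJ the lowest, median and highest CPM were 1.04, 3.03 and 4.84 on CD and 0.175, 0.260 and 0.322 on WD, 9.47-fold lower (-3.24 ± 0.66, adjusted p = 2.69e-04). In 129S1/SvImJ they were 4.08, 6.11 and 10.5 and 0.999, 1.87 and 2.73 (-1.91 ± 0.35, adjusted p = 1.27e-05). No overlap was seen in either strain. Depth was thin in 2 groups: WSB/EiJ mice on WD had 7 to 14 Fdps reads each and CAST/EiJ mice on WD 2 to 13, and the CAST/EiJ difference of -1.84 ± 0.69, adjusted p = 0.0471, missed the threshold with upper-quartile normalization (adjusted p = 0.0510) and with sample weights (adjusted p = 0.0927). In DBA/2J Fdps ran over 2.28, 4.83 and 12.7 CPM on CD and 2.48, 3.88 and 6.62 on WD, and the difference of -0.56 ± 0.30, adjusted p = 0.201, did not pass.

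Fdft1 (ENSMUSG00000021273, chr14:63145150-63179578, minus strand), squalene synthase, commits farnesyl diphosphate to sterols. It was 2.81-fold lower on WD in PWK/PhJ, with 121, 189.6 and 339.7 CPM on CD and 52.7, 61.4 and 77.7 on WD (-1.49 ± 0.18, adjusted p = 1.68e-10). C57BL/6J showed 86.4, 127 and 201 and 33.7, 47.4 and 65.6 CPM (-1.46 ± 0.16, adjusted p = 1.82e-11). Both strains had no overlap between diets. A/J had 94.5, 101, 108, 109 and 120.2 CPM on CD and 80.6, 82.4 and 90.6 on WD, which did not overlap either, yet the log2 difference of -0.33 ± 0.19, adjusted p = 0.305, did not pass in the fit of all strains; in a fit of A/J alone it did (adjusted p = 0.00558). CAST/EiJ (-0.40 ± 0.16, adjusted p = 0.0751) and DBA/2J (-0.26 ± 0.17, adjusted p = 0.330) did not pass, while edgeR (adjusted p = 0.0416) and DESeq2 (adjusted p = 0.0316) called CAST/EiJ lower.

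Ggps1 (ENSMUSG00000021302, chr13:14050659-14063488, minus strand) makes geranylgeranyl diphosphate, used to anchor small GTPases in membranes, and stands off the route to squalene. Its log2 difference lay between -0.18 ± 0.08 in A/J and -0.05 ± 0.07 in CAST/EiJ, negative in 7 of 7 strains, with adjusted p from 0.171 to 0.680 and an unadjusted p under 0.05 in A/J alone. No strain was called by edgeR or DESeq2. In C57BL/6J the lowest, median and highest CPM were 10.3, 11.01 and 13.1 on CD and 9.93, 10.7 and 11.4 on WD, and in WSB/EiJ 9.65, 10.6 and 10.9 and 8.74, 9.57 and 10.2. The diets overlapped in every strain. With sample weights the A/J difference passed (-0.21, adjusted p = 0.0267).

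Mice of each strain came from 2 or 3 cohorts, numbered in the labels, so the diet difference was also taken inside each of the 15 strain and cohort combinations. Hmgcs1, Pmvk, Mvd, Idi1 and Fdps were lower on WD in 15 of 15 and Acat2, Mvk and Fdft1 in 14 of 15. Ggps1 was lower in 10 of 15. The same count was not taken for other genes. Without Ggps1, the median log2 difference of the members was -0.12 in DBA/2J cohort 4 and -0.74 in DBA/2J cohort 5, and in A/J it was -1.39 in cohort 2 and -0.48 in cohort 3. With cohort as a term within strain, the number of members called lower was the same in each of the 7 strains.

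Markers of other cells were read beside all 19110 genes, of which 839 in A/J to 2877 in PWK/PhJ were called higher on WD and 758 in WSB/EiJ to 2777 in PWK/PhJ lower. Of 8 leukocyte markers, 7 were higher on WD in 129S1/SvImJ, 6 in PWK/PhJ, 5 in C57BL/6J, 3 in WSB/EiJ, 1 in A/J and 1 in CAST/EiJ by limma-voom, and none in DBA/2J, where 1 had an unadjusted p under 0.05 and lay lower. Their summed level ran from 18.1 to 85.6 CPM on CD and from 103 to 191 on WD in PWK/PhJ, and from 141 to 198 on CD and from 121 to 207 on WD in DBA/2J. Higher on WD per strain were 0 to 2 of 5 Kupffer cell markers, 0 to 3 of 6 stellate cell markers, 0 to 2 of 5 endothelial markers and 0 to 4 of 5 cholangiocyte markers. In these 4 lists the lower calls were endothelial Clec4g in C57BL/6J (-0.24), DBA/2J (-0.39) and PWK/PhJ (-0.46) and cholangiocyte Sox9 in DBA/2J (-0.75). No marker of any list was at 0 in any mouse. Of the 7 hepatocyte markers, 1 to 4 were lower on WD per strain, and their summed level in WSB/EiJ ran from 139620 to 173024 CPM on CD and from 62553 to 106753 on WD. Alb, the main secreted protein of hepatocytes, was lower on WD in 6 of 7 strains, from -0.95 in WSB/EiJ to -0.26 in 129S1/SvImJ on the log2 scale, with -0.15 in DBA/2J not passing (adjusted p = 0.320). Alb also had more reads than any other of the 7 in every mouse, so it weighs most in that sum. The markers did not move alike: Apob was called in no strain (-0.14 in A/J to 0.17 in C57BL/6J) and Hnf4a only in 129S1/SvImJ (-0.31). The unmapped share of reads went from a mean of 3.50% on CD to 7.88% on WD in PWK/PhJ, with no overlap, from 4.52% to 7.42% in WSB/EiJ and from 6.45% to 4.77% in DBA/2J, and its part in the members' differences was not tested. The part of cell composition in the members' differences was not tested, and in whole liver a lower share of hepatocytes cannot be told apart from less of an mRNA in each hepatocyte.

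The diet effect itself differed between strains for 8 of the 9 members (F test over the 7 strains, 37.5% of all genes), from Fdft1 (adjusted p = 5.5e-06) to Hmgcs1 (adjusted p = 0.00796). Ggps1 was the exception (adjusted p = 0.958). Each strain was then set against the mean of the other 6, so that these comparisons share mice, and 13 of 63 member and strain combinations passed, against 7.28% of all gene and strain combinations. Of the 13, 5 were a weaker fall in DBA/2J, with Fdps by 1.52 ± 0.36, Mvd by 1.49 ± 0.34, Idi1 by 1.46 ± 0.34, Pmvk by 0.65 ± 0.20 and Fdft1 by 0.65 ± 0.19 on the log2 scale. In C57BL/6J 3 members fell more than elsewhere, namely Hmgcs1 (-1.09 ± 0.27), Fdft1 (-0.74 ± 0.17) and Acat2 (-0.48 ± 0.14). PWK/PhJ showed a stronger fall of Fdft1 (-0.78 ± 0.19) and Acat2 (-0.56 ± 0.16).

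CAST/EiJ departed in both directions. Pmvk fell more there than in the other 6 strains (-0.92 ± 0.31, adjusted p = 0.0311), while Acat2 (0.58 ± 0.15, adjusted p = 0.00375) and Fdft1 (0.49 ± 0.18, adjusted p = 0.04996) fell less. The same mice combined the largest Pmvk change of the panel with the least change in Acat2. Mvk passed the F test (adjusted p = 0.00772) though no single strain passed against the rest. WSB/EiJ, A/J and 129S1/SvImJ had no member that differed from the mean of the other 6.

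Levels on CD differed between strains for all 9 members (93.7% of genes did so by the same F test). Among the 63 comparisons of a strain with the mean of the other 6, 40 passed, 18 higher and 22 lower. Over all genes 50.4% of such comparisons passed, with the 7 strains and both directions pooled. No share for a single strain and direction was taken, so the counts by strain that follow have none beside them. PWK/PhJ was higher for 8 members, all but Ggps1: 4.64-fold for Fdps, 4.45-fold for Mvd, 2.90-fold for Hmgcs1, 2.68-fold for Acat2 and from 1.53 to 2.22-fold for the other 4. C57BL/6J was higher for 7 members, with Hmgcs1 at 2.98-fold and Idi1 at 2.31-fold the largest. These 2 strains held the highest and second mean of the panel for 8 members on CD.

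CAST/EiJ was lower for 8 members, with log2 differences of -3.04 ± 0.41 for Fdps, -1.88 ± 0.17 for Pmvk, -1.50 ± 0.24 for Idi1 and -1.46 ± 0.29 for Mvd, and its Ggps1 was higher by 0.17 ± 0.05. The Fdps range there, 0.539, 0.635 and 0.956 CPM from 21 to 39 reads per mouse, lay under every mouse of the next strain, WSB/EiJ, at 1.04, 3.03 and 4.84. Between 8.93% and 13.9% of reads did not map in the CAST/EiJ mice on CD, above the 1.66% to 2.60% of C57BL/6J, and the part of this in the low values was not tested. WSB/EiJ was lower for 6 members, DBA/2J for 5, 129S1/SvImJ for 2 and A/J for 1. In addition Fdps was higher in 129S1/SvImJ (0.67 ± 0.21) and Pmvk in A/J (0.42 ± 0.14).

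In the order of the CD means, neighbouring strains without overlap between mice were found for Acat2, between PWK/PhJ (135 ± 43.8 CPM, SD, n = 6) and C57BL/6J (59.2 ± 12.4, SD, n = 8), and for Fdps, between WSB/EiJ and CAST/EiJ. For Pmvk the order of the CD means was PWK/PhJ 54.03 ± 20.6, C57BL/6J 39.3 ± 10.2, A/J 33.6 ± 6.60, DBA/2J 31.4 ± 7.84, 129S1/SvImJ 24.2 ± 4.196, WSB/EiJ 20.7 ± 8.47 and CAST/EiJ 8.56 ± 1.36 CPM (mean ± SD), each overlapping the next. Ggps1 had a much narrower range, from 11.4 ± 1.05 CPM in C57BL/6J to 8.61 ± 0.703 in DBA/2J.

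Cohorts did not hold all strains. In cohort 1, which held C57BL/6J, PWK/PhJ and 1 CAST/EiJ mouse on CD, PWK/PhJ had the highest mean for 8 of the 9 members and CAST/EiJ the lowest for 8. In cohort 2 PWK/PhJ was highest for 5 members and C57BL/6J for 4. CAST/EiJ was lowest for 7 members in cohort 3 and for 7 in cohort 4. With cohort as a term, 25 of 54 comparisons passed, close to the share of 44.0% over all genes. This fit left out WSB/EiJ because its cohorts held no other strain. PWK/PhJ was again higher for 8 members, but Idi1 (0.26 ± 0.25, adjusted p = 0.405) was no longer among them and Ggps1 was (0.17 ± 0.07, adjusted p = 0.0384). CAST/EiJ was lower for 7, having lost Mvk (adjusted p = 0.236), and its higher Ggps1 did not pass (adjusted p = 0.0690). C57BL/6J was higher for 5 members, without Mvd (0.39 ± 0.30, adjusted p = 0.290) and Fdps (0.64 ± 0.30, adjusted p = 0.0716). DBA/2J was lower for 2, Hmgcs1 and Ggps1, without Acat2 (adjusted p = 0.0507), Fdft1 (adjusted p = 0.0796) and Mvk (adjusted p = 0.228). Neither Fdps in 129S1/SvImJ (0.30 ± 0.34, adjusted p = 0.519) nor Pmvk in A/J (0.31 ± 0.16, adjusted p = 0.134) passed.

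**Figure D3:**
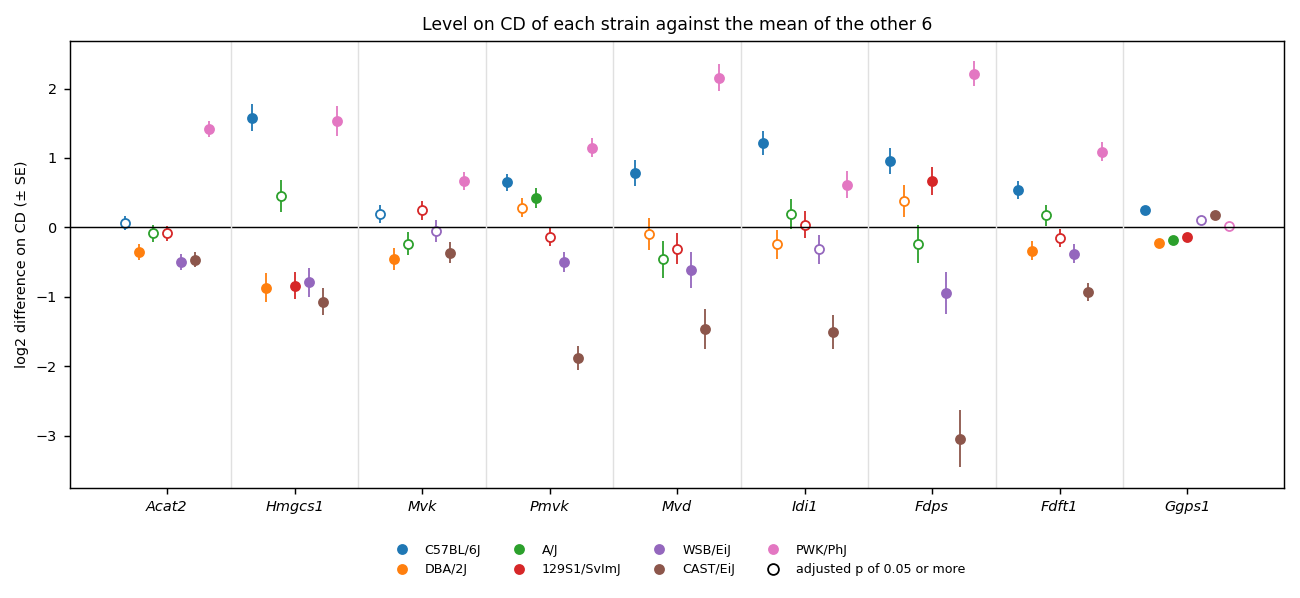
Log2 difference on CD between each strain and the mean of the other 6, with its standard error; filled points passed the test. PWK/PhJ lies above 0 for all members, most for Fdps at 2.22 and Mvd at 2.15, and CAST/EiJ lies lowest for Fdps at -3.04 and Pmvk at -1.88.

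On WD the members again differed between strains in 9 of 9 cases, beside 93.9% of all genes. Mvk had the largest p (adjusted p = 0.0195), with group means from 5.31 CPM in WSB/EiJ to 8.30 in 129S1/SvImJ. Idi1 means on WD ran from 1.03 ± 0.258 CPM in CAST/EiJ and 1.12 ± 0.386 in WSB/EiJ to 8.01 ± 3.39 in PWK/PhJ (mean ± SD). Sequential sums of squares of the log2 CPM gave strain 62.8% of the variance of Fdps, 58.0% of Pmvk and 53.2% of Acat2, and diet 59.7% of the variance of Idi1 and 48.5% of Mvk. For Ggps1 strain held 60.4% and diet 7.44%. The strain by diet share was largest for Fdft1, at 12.7%.

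Enzymes after squalene were also lower on WD. Of 77 combinations of 11 enzymes and 7 strains, 74 were called lower on WD by limma-voom, beside 9.44% of all gene and strain combinations. None was called higher or was higher at an unadjusted p under 0.05. Sqle, which epoxidizes squalene, was lower in all 7 strains with log2 differences from -3.39 to -2.13, Cyp51, a lanosterol demethylase, from -3.04 to -1.21, Nsdhl from -2.28 to -0.95 and Dhcr7 from -1.84 to -0.66. In DBA/2J 9 of these 11 enzymes were called lower, beside 2 of the 9 members. Its median log2 difference was -0.66 for these enzymes and -0.40 for the members.

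**Figure D4:**
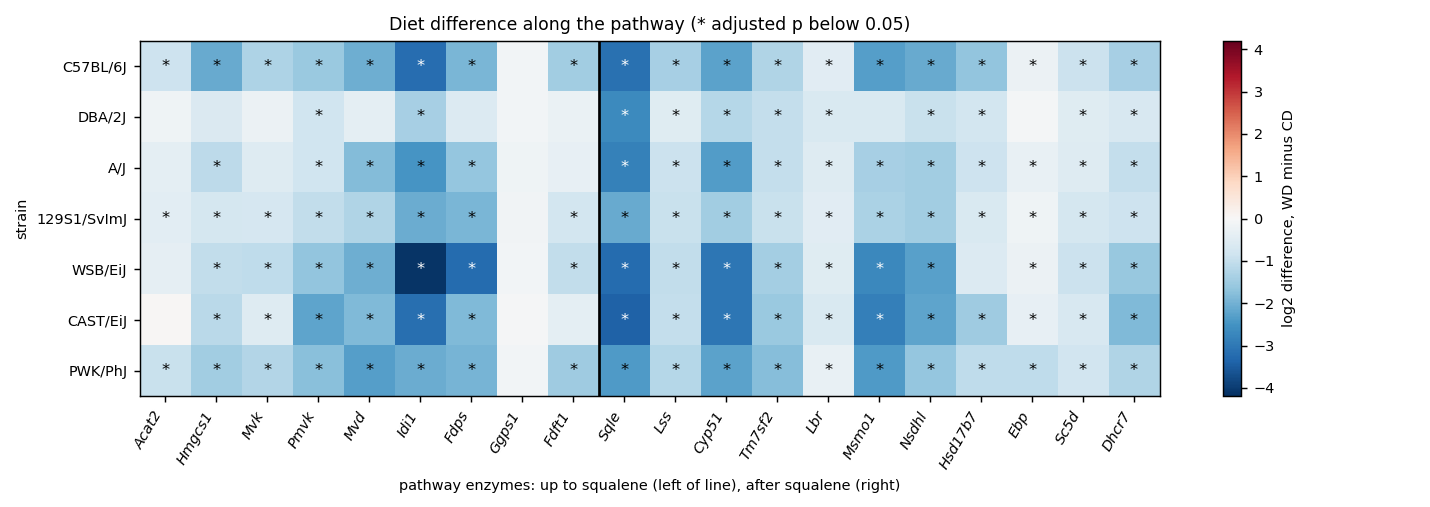
Log2 difference, WD minus CD, of the members and 11 enzymes after squalene in pathway order (columns) and strain (rows), with a star where the test passed. The column of Ggps1 is nearly white in all strains, and the DBA/2J row has stars up to squalene only at Pmvk and Idi1.

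The genes named here that feed or regulate the pathway were more often lower than higher on WD, apart from Acat1, Mbtps2 and the LXR targets. Of 28 combinations of 4 suppliers of acetyl-CoA and 7 strains, 15 were lower and 3 higher, beside 9.44% and 10.5% of all gene and strain combinations. Acly, the ATP citrate lyase, was lower in 6 strains (log2 differences from -1.75 to -0.43 over the 7), Slc25a1, the mitochondrial citrate carrier, in 5 and Acss2 in 4, whereas mitochondrial Acat1 was higher in 3. In the SREBP2 system, Insig1, which retains SREBP in the endoplasmic reticulum (-1.51 to -0.61), and Srebf2, which encodes SREBP2 (-0.82 to -0.36), were lower in all 7 strains. Mbtps2 was called in none by limma-voom, also at an unadjusted p under 0.05. For 6 targets of the sterol sensor LXR, 25 of 42 combinations were higher and 1 lower, beside 10.5% and 9.44% of all gene and strain combinations. Abcg1 and Abcg5, both sterol exporters, were higher in 6 strains, Srebf1 in 5 and lower in 1, and Abcg8 in 4.

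In the non-sterol branches around Ggps1, over 11 genes tested of 12 and 7 strains, 12 of 77 combinations were lower and 11 higher. Over all genes, 9.44% of such combinations were lower and 10.5% higher. Rabggtb, a subunit of the enzyme that attaches geranylgeranyl groups to Rab proteins, was lower in 6 strains (log2 differences from -0.46 to -0.16 over the 7), and Coq2, which prenylates the ubiquinone ring, was higher in 6 (0.09 to 0.34). By limma-voom Pdss1, Pdss2 and Dhdds were called in no strain, and reached an unadjusted p under 0.05 in 0, 4 and 1 of them.

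Within a group, mice that were high for one member tended to be high for the others. Deviations of log2 CPM from the group mean were correlated over 93 mice for the 36 pairs of members, with 100000 permutations within groups and Benjamini-Hochberg adjustment over the pairs. All 28 pairs without Ggps1 passed. Pearson r ran from 0.52 (Mvk and Pmvk) to 0.83 (Mvk and Fdft1) and Spearman rho from 0.47 to 0.78. Pairs of other genes were not put through this test, so no share over all genes stands beside that count. The largest adjusted permutation p among the 28 was 2.57e-05 for r and the smallest was 1.33e-05. Before adjustment the permutations could give no p under about 1e-05. Without the 2 mice farthest from the median of the first member, r ran from 0.51 to 0.81. Hmgcs1 and Idi1, for example, had r = 0.81 and rho = 0.78 (0.78 for r without the 2 mice).

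Pairs with Ggps1 were negative or near 0. Its 8 pairs had r from -0.33 to -0.01, of which Mvk (r = -0.33, rho = -0.36, adjusted permutation p = 0.00133) and Fdft1 (r = -0.24, rho = -0.25, adjusted permutation p = 0.0182) passed. By rho the pair with Idi1 passed as well (rho = -0.23, adjusted permutation p = 0.0381). With deviations taken within strain, diet and cohort, 28 of 36 pairs passed in place of 30. Some mice stood at one end for the whole set. Here 1 PWK/PhJ mouse on CD was the highest of its group for 8 of the 8 members other than Ggps1, as was 1 WSB/EiJ mouse on WD, and 1 DBA/2J and 1 WSB/EiJ mouse on CD were the lowest of their groups for all 8. Without that DBA/2J mouse 3 members were called lower in DBA/2J, in place of 2, and 11 diet effects differed from the other strains, in place of 13.

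**Figure D5:**
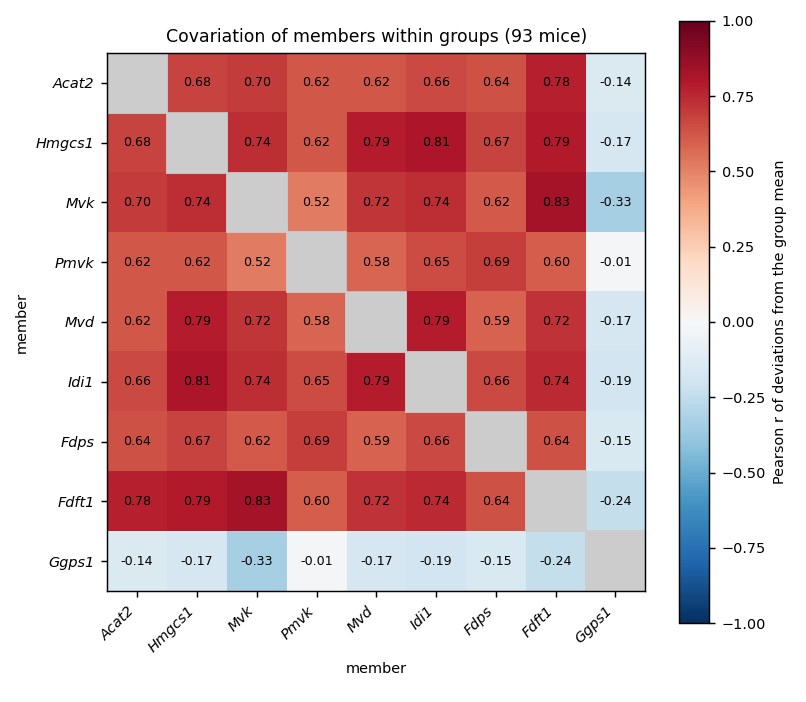
Pearson r between the deviations of each pair of members from their group means over 93 mice; the grey diagonal is a gene with itself. The block of 8 members is positive throughout, from 0.52 to 0.83, and the row of Ggps1 is at or below -0.01.

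The genes outside the 9 whose deviations were most like the mean of the members over the 93 mice were Nsdhl (r = 0.89), Mmab (r = 0.85), Dhcr7 (r = 0.84), Lss (r = 0.83) and Erg28 (r = 0.82), given as a description. Of the members themselves, which form that mean, Fdft1 (r = 0.88) and Hmgcs1 (r = 0.88) came closest and Ggps1 had r = -0.01.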

How the data were processed

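Liver RNA of 93 mice was sequenced, and the authors deposited a table of raw counts, whole numbers of reads per gene and mouse with no normalization. Libraries were made with a SMARTER kit and sequenced on a BGISEQ instrument. Reads were mapped to the C57BL/6J genome and counted with STAR, and the submitters' processing notes name STAR 2.7.1a and the builds GRCm38 and mm10. Whether counting separated the strands is not given in the sources used here. The 4 summary lines for unassigned reads were kept out of library sizes and used for the unmapped share. Symbols and exons came from GENCODE on GRCm38, promoters from RefSeq.

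Genes were kept with the edgeR 4.0.16 filter at a minimum count of 10, scaled by TMM and tested in 1 limma 3.58.1 voom fit of 14 groups in R 4.3.3 (Benjamini-Hochberg over 19110 genes, threshold 0.05). CPM uses the TMM library sizes; log2 CPM adds a prior count of 2. Error terms after log2 differences are standard errors. The scripts were tested on simulated data. Alternatives were edgeR, DESeq2 1.42.0, other scaling and filters, sample weights, RIN (7 to 9.7), cohort, separate fits and leaving out mice. With 40020424 to 49894856 reads per mouse, counting error matters for genes with few reads, such as Fdps.

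The members and lists were chosen with earlier results of these data known. All members are named; other lists give counts and up to 4 genes, those called in most strains and any called in none. Some genes of those lists are not reported here. BLAST+ 2.17.0+ was used for close copies, and motifs were exact matches on both strands. Replicate numbers follow the order of the samples and pair nothing. The labels name no repeat sampling of a mouse, so each column was taken as 1 animal.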

Additional observations from a re-analysis of the deposited data

Results flagged for a closer look

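Of 126 checks for a mouse standing apart, one for each member and group, 4 exceeded Dixon's 95% value, where chance gives about 5 in 100. Mvd in DBA/2J on WD was 14.3 CPM in replicate 5, against 7.00 to 8.57 in the other 6 mice. Hmgcs1 in CAST/EiJ on CD was 26.0 CPM in replicate 5, against 48.8 to 68.0 in the rest. Fdps in C57BL/6J on WD was 0.723 CPM in replicate 7, under the 1.85 to 2.98 of the others. Acat2 in 129S1/SvImJ on WD was 45.05 CPM in replicate 1, above 36.7 to 39.2.

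The test of the difference between a strain's diet effect and the mean of the other 6 picked 13 values on the log2 scale. Those of DBA/2J were 1.52 for Fdps, 1.49 for Mvd, 1.46 for Idi1, 0.65 for Pmvk and 0.65 for Fdft1, each a weaker fall. Those of CAST/EiJ were 0.58 for Acat2, 0.49 for Fdft1 and -0.92 for Pmvk. Those of C57BL/6J were -1.09 for Hmgcs1, -0.74 for Fdft1 and -0.48 for Acat2, and those of PWK/PhJ were -0.78 for Fdft1 and -0.56 for Acat2. The adjusted p of Fdft1 in CAST/EiJ was 0.04996, so that it sits at the threshold.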

How the results depend on the processing

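Over all settings that kept every mouse, the members called lower on WD numbered 7 to 8 in PWK/PhJ, 129S1/SvImJ and C57BL/6J, 6 to 7 in WSB/EiJ, 4 to 7 in CAST/EiJ, 4 to 8 in A/J and 2 to 3 in DBA/2J. In A/J, 8 were called with sample quality weights and 8 with separate fits for each strain, in place of 5. Without the filter on low counts, 8 member and strain diet effects differed from the other 6 strains, in place of 13. CD levels that differed numbered 25 with cohort as a covariate without WSB/EiJ, in place of 40, over fewer strains. Acat2 in CAST/EiJ changed sign, to -0.021 with edgeR (adjusted p = 0.948) and -0.028 with DESeq2 (adjusted p = 0.926), with no call under any. Of the values of single members in single strains under these alternatives, 539 stayed on their side of the threshold, 10 lost the call (4 of them Hmgcs1 without the filter), 9 gained it and 2 changed sign. A minimum of 10 counts in every mouse removed Fdps, which lowers those counts by construction. Otherwise the cause of these shifts was not tested.

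Leaving out each A/J mouse in turn gave 5 members lower in A/J each time. When 2 mice were left out after seeing the data, one at a time, the highest PWK/PhJ and the lowest DBA/2J mouse on CD, there were 8 lower in PWK/PhJ, 2 to 3 in DBA/2J and 11 to 13 diet effects and 39 to 40 CD levels that differed. No paired analysis was possible because replicate numbers follow sample order and the labels tie no mouse of one group to a mouse of another. Depth limits Fdps, with 2 to 14 reads per mouse on WD in CAST/EiJ and WSB/EiJ.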
